A study of Mus musculus with 2 samples.

Results

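The genes described here are 9 genes named for lipid-associated macrophages: Spp1, Trem2, Gpnmb, Lpl, Cd9, Fabp5, Lgals3, Itgax and Cd68. They were taken by gene symbol, each symbol matched 1 row, and they are 9 of the 27998 gene rows in the count matrices. Their levels are given in macrophages, in cells of the retinal pigment epithelium (RPE) and in pigment cells rich in matrix genes, beside the level that free RNA would give. Single cells came from C57BL/6J mice, from the RPE, the pigmented sheet that serves the photoreceptors, and the choroid, its blood supply, and transcripts were counted as unique molecular identifiers (UMIs). The 2 groups were sodium iodate (NaIO3, an oxidant toxic to the RPE) given intravenously, 20 mg/kg, and phosphate-buffered saline (PBS), with eyes taken 7 days later. Each group was 1 pool of the eyes of 6 mice and 1 library, so no difference below has a replicate check, and animal, library and treatment cannot be told apart. Age and sex were not given in the sources used here, and brown hexagonal cells were picked by hand after removal of the neural retina, so cell numbers follow the dissection too.

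Lipid-associated macrophages are phagocytes that take up dead cells, membrane and lipoprotein, and they have been described in fat, atherosclerotic plaque and diseased nervous tissue, where the same genes mark disease-associated microglia. The surface receptor TREM2 binds lipids, apolipoproteins and cell debris and signals through the adaptor TYROBP. In the retina, microglia and macrophages gather at the RPE when photoreceptors or RPE cells are damaged. Of the 9 genes, Spp1 encodes osteopontin, a secreted phosphoprotein that binds integrins and CD44. Trem2 and Itgax encode surface receptors, the second being the integrin chain CD11c. Lpl encodes lipoprotein lipase, which frees fatty acids from triglyceride, and Fabp5 a fatty acid carrier of the cytosol. Gpnmb encodes a membrane glycoprotein related to the melanosome protein PMEL, and Cd68 a heavily glycosylated membrane protein of the late endosome and lysosome. Cd9 encodes a tetraspanin, and Lgals3 encodes galectin-3, which binds galactosides on glycoproteins.

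All 9 are protein-coding genes in GENCODE M21 (build GRCm38). Spp1 lies at chr5:104435118-104441050, Trem2 at chr17:48346401-48354147, Gpnmb at chr6:49036546-49070929 and Lpl at chr8:68880491-68907448. Cd9 lies at chr6:125460266-125494791, Fabp5 at chr3:10012548-10016607, Lgals3 at chr14:47367751-47386160, Itgax at chr7:128129547-128150657 and Cd68 at chr11:69664213-69666153.

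The promoters of 4 members are shown because Spp1 and Gpnmb had the largest differences between the libraries in macrophages, while Trem2 and Cd68 were high in macrophages of both. Each sequence is the 250 bases before a start site in RefSeq, build GRCm38.p6, 5′ to 3′ on the strand of the gene. Capitals mark 4 short motifs, searched on both strands. TGAGTCA is a site form of the factor AP-1. The letters used for PU.1 were GAGGAA, which read TTCCTC from the other strand. Those for RUNX were TGTGGT, which read ACCACA from the other strand. TATAAA stands for a TATA box.
Spp1, chr5:104434861-104435110, plus strand: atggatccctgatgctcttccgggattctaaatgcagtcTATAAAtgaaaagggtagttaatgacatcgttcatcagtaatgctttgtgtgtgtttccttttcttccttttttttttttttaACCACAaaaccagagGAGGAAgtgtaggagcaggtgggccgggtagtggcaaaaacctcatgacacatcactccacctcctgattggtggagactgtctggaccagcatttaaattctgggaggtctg
Gpnmb, chr6:49036268-49036517, plus strand: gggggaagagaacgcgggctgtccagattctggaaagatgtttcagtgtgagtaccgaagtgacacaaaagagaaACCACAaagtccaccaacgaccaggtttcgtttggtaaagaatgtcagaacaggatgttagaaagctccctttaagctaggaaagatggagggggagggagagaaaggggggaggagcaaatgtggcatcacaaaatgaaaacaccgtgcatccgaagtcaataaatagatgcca
Trem2, chr17:48346151-48346400, plus strand: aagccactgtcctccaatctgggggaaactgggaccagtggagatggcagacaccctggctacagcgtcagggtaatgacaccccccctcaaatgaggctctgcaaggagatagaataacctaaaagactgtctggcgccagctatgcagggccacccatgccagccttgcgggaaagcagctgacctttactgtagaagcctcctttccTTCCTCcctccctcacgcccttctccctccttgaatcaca
Cd68, chr11:69666171-69666420, minus strand: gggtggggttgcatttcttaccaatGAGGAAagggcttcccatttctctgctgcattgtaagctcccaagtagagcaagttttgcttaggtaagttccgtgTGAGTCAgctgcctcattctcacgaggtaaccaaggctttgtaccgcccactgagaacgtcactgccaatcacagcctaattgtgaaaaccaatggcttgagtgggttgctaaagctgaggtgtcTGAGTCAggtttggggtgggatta
A match to these letters was found for Spp1 at 113 (PU.1), 128 (RUNX) and 211 (TATA) bases before the start. Gpnmb had the RUNX letters at 175, Trem2 the PU.1 letters at 40, and Cd68 the AP-1 letters at 24 and 149 and the PU.1 letters at 225. No marked motif overlapped another. Of 32851 promoter windows of this length, 4.46% held the AP-1 letters, 23.3% the PU.1 letters, 14.0% the RUNX letters and 12.4% the TATA letters, so that the PU.1 letters shared by Spp1, Trem2 and Cd68 are common. The E-box letters CACGTG (6.02% of windows) and CATGTG (12.3%) were searched too and were in none of these 4 windows. A match describes letters only.

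After filtering, 4225 PBS and 3816 NaIO3 cells were kept, from libraries of 51055592 and 51168520 UMIs. Cells were clustered without the 9 genes and named from marker genes, so the names end in "-like". Macrophage-like cells numbered 104 in PBS and 476 in NaIO3, with medians of 4162 and 11598 UMIs per cell. RPE-like cells numbered 2974 and 968. A further group with RPE markers, whose leading genes were melanin genes, held 427 and 1278 cells and is called pigment-led. A NaIO3 cluster of 124 cells (cluster 11) had both pigment and matrix genes and is called matrix-rich pigment. Another of 89 cells (cluster 13) had matrix genes with little of the pigment genes (Mlana at 29.98 CPM) and is called matrix-rich. Neither of these 2 clusters had a PBS cell. The macrophage marker C1qa stood at 6265 CPM (UMIs of the gene scaled to 1 common total per class) in PBS and 5822 in NaIO3. Lyz2 stood at 16098 and 16197 CPM. Other markers differed between the libraries. Of 10 macrophage genes used below as a free RNA reference, 2 were at least 2-fold lower in NaIO3 (14.2% of all genes). None was at least 2-fold higher (9.21%). Mrc1 stood at 228 CPM in PBS cells of cluster 12 and 1.11 CPM in NaIO3 cells of cluster 5, the largest macrophage-like clusters of each library. In RPE-like cells Rpe65 stood at 4057 and 3656 CPM. The matrix-rich pigment cluster had Tyrp1 at 419 CPM, Mlana at 299 CPM and Sparc at 3231 CPM, but its Rpe65, 252 CPM, was no higher than in NaIO3 macrophage-like cells, 269 CPM. Of the barcodes, 24 occurred in both libraries. Levels below carry exact Poisson 95% intervals and ratios exact conditional binomial 95% intervals, which cover counting error only.

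Macrophage-like cells had the highest level of most of the 9 genes in both libraries. In PBS they were highest of 12 cell classes for 7 of 9 genes, where 7.95% of all 14220 genes tested were highest there. In NaIO3 they were highest of 9 classes for 7 of 9, against 6.13% of 14715 genes. The exceptions were Lgals3, highest in surface epithelium-like cells of both libraries (3317 CPM in PBS and 3042 CPM in NaIO3), Cd9 in PBS, highest in endothelial-like cells (1359 CPM), and Itgax in NaIO3, 53.7 CPM in dendritic-like and 28.8 CPM in macrophage-like cells with overlapping intervals. Itgax was also not apart from the next class in PBS, at 24.5 CPM in macrophage-like and 16.6 CPM in dendritic-like cells. Trem2 was the member most separated from the next class in PBS, 35.5-fold above dendritic-like cells, and Spp1 in NaIO3, 10.3-fold above the matrix-rich cluster.

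**Figure D1:**
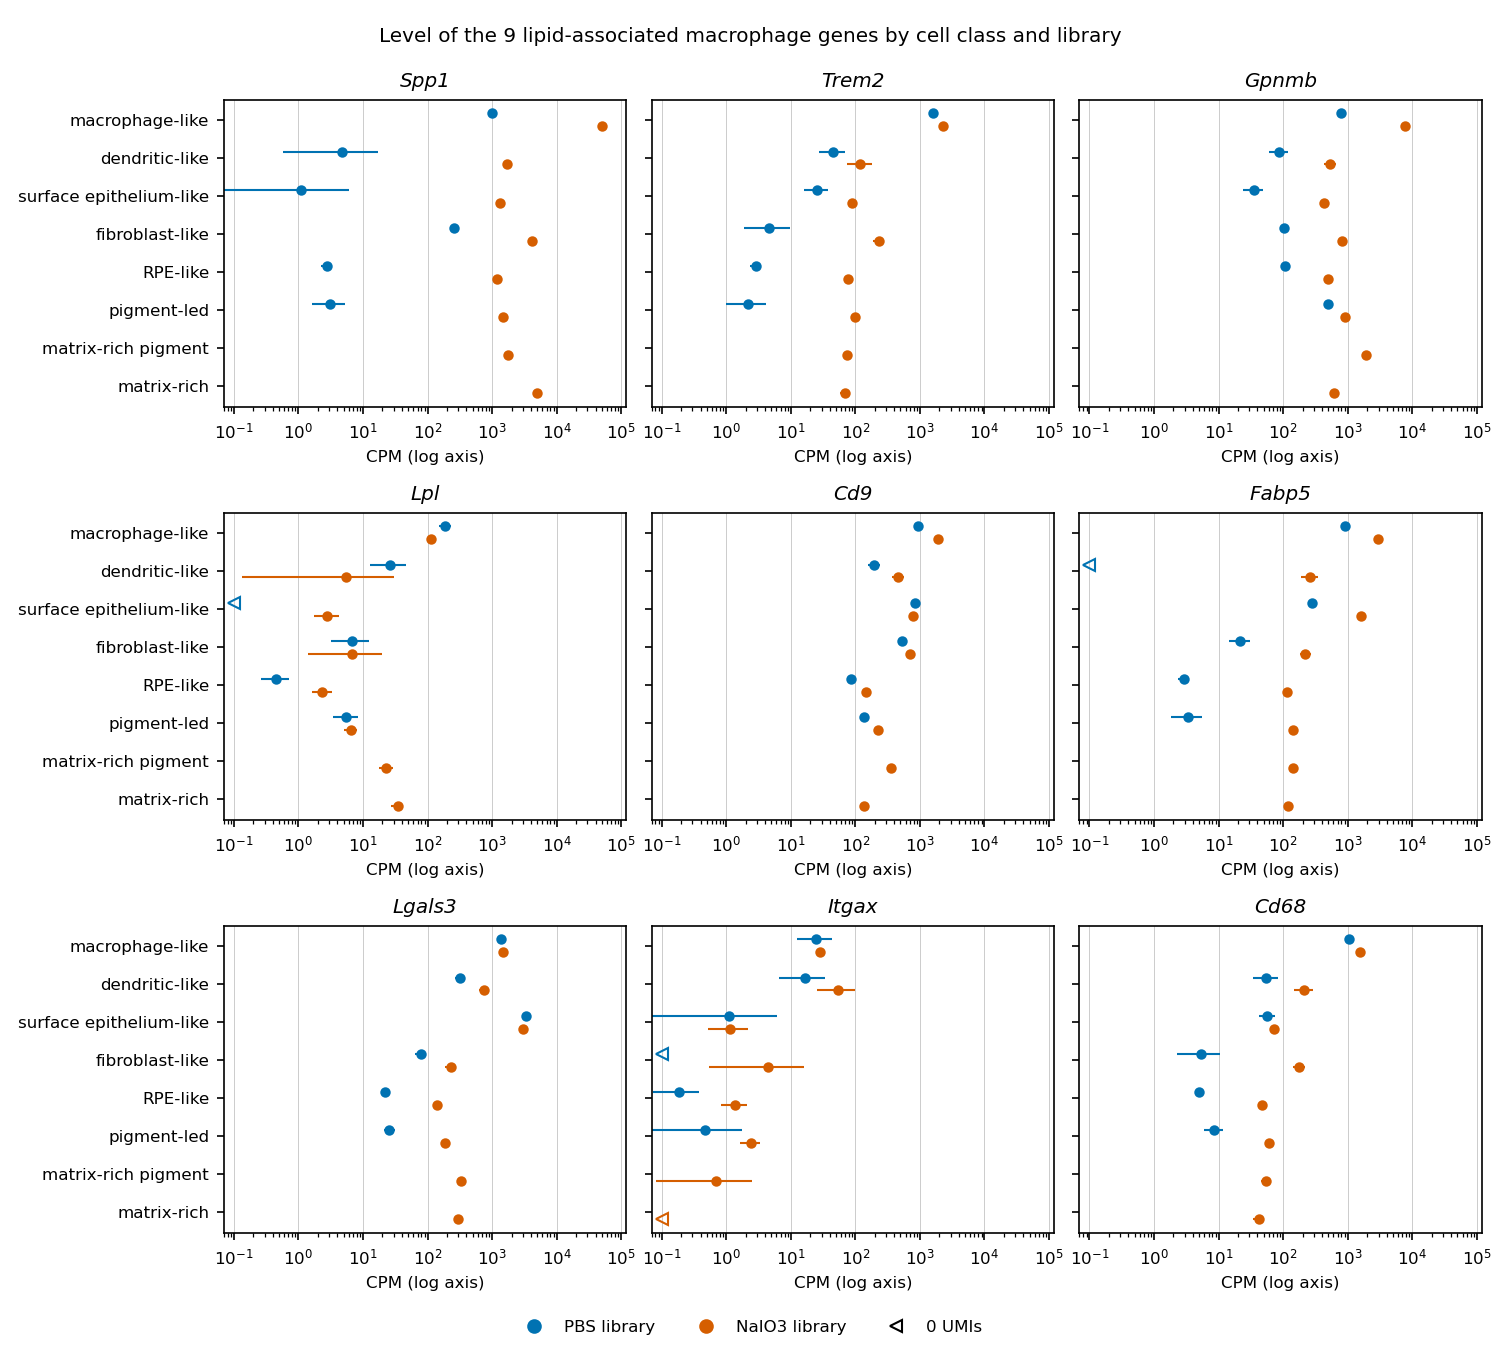
Level of each member (CPM, log axis) in 8 cell classes, PBS in blue and NaIO3 in orange. Points are summed counts and lines exact Poisson 95% intervals, cut at the left edge of the axis, and an open triangle stands for 0 UMIs. Spp1 in NaIO3 lies at or above 1181 CPM in every class drawn, and in macrophage-like cells at 50377 CPM.

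Where the molecules lay differed between the libraries. Macrophage-like cells gave 1.04% of all UMIs of kept cells in PBS and 13% in NaIO3. They held 49.1% of the Spp1 UMIs in PBS, with fibroblast-like cells holding 37.9%, and 82.5% in NaIO3. For Trem2 the share was about the same, 81.4% and 79.5%. Gpnmb shifted most between classes: RPE-like and pigment-led cells held 59.0% and 30.4% of its UMIs in PBS and macrophage-like cells 5.50%, while in NaIO3 macrophage-like cells held 61.2%. For Lgals3 the largest holder was surface epithelium-like cells, with 54.4% in PBS and 59.9% in NaIO3, so whole-library Lgals3 mainly reads those cells.

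**Figure D2:**
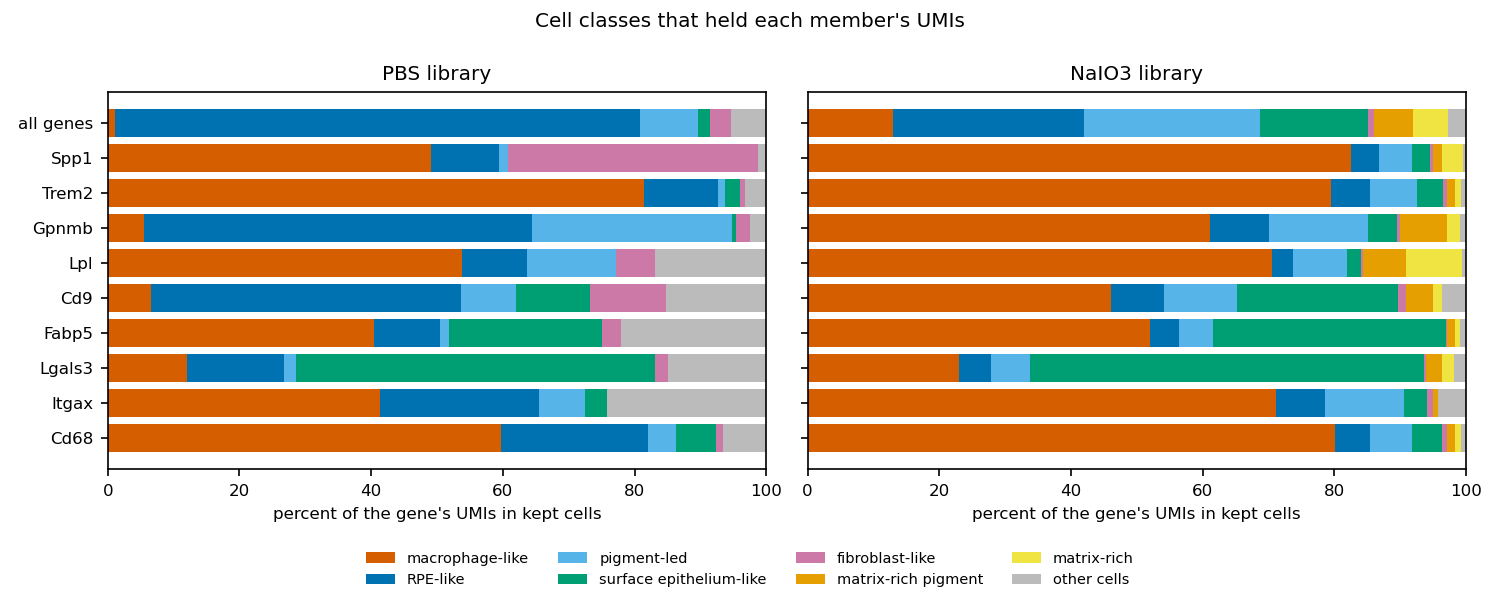
Percent of each member's UMIs found in each cell class, PBS on the left and NaIO3 on the right, with all genes together in the top bar. Macrophage-like cells (red-orange) held 82.5% of Spp1 UMIs in NaIO3 and 49.1% in PBS.

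In macrophage-like cells Spp1, Gpnmb, Fabp5 and Cd9 were at least 2-fold higher in NaIO3 than in PBS, and none of the 9 genes was at least 2-fold lower. Of 10407 genes with at least 20 counts, 9.21% were at least 2-fold higher and 14.2% at least 2-fold lower. The median log2 ratio was 0.61 over the 9 genes and -0.22 over all tested genes. With 1 library per group these are differences between the libraries, and the clusters that made up the class differed too, as given further on.

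Spp1, the secreted member, stood at 1009 CPM in PBS and 50377 CPM in NaIO3, a ratio of 49.9 (45.7 to 54.6). It was the gene with rank 145 of 12029 detected in PBS macrophage-like cells and rank 2 of 15790 in NaIO3. The PBS value leaned on 1 cell, which gave 243 of the 495 Spp1 UMIs, and only 21 of 104 PBS cells had any. All 476 NaIO3 cells had Spp1 UMIs, and the highest of them gave 4.04% of the total. A Spp1 UMI was found in all 3816 kept NaIO3 cells of every class, so its presence does not set macrophage-like cells apart. Depth differed too, with medians of 4162 UMIs per macrophage-like cell in PBS and 11598 in NaIO3.

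Of the receptors, Trem2 was already abundant in PBS, at 1600 CPM in PBS and 2281 CPM in NaIO3 (ratio 1.43, 1.33 to 1.53), and 96 of 104 PBS cells had a UMI. Itgax was low in both, with 12 and 182 UMIs in all (ratio 1.18, 0.658 to 2.32), an interval that reaches from below 1 to above 2, so no difference was detectable at this depth.

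The genes of lipid handling went apart. Fabp5 stood at 895 CPM in PBS and 2957 CPM in NaIO3 (ratio 3.30, 3.01 to 3.64). Lpl stood at 187 and 114 CPM (ratio 0.610, 0.490 to 0.766), the only member lower in NaIO3.

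Of the lysosomal and membrane members, Gpnmb stood at 772 and 7613 CPM (ratio 9.86, 8.91 to 10.9) and moved from rank 175 to rank 13 among the detected genes. Cd68 stood at 1031 and 1573 CPM (ratio 1.53). The tetraspanin gene Cd9 stood at 919 and 1873 CPM (ratio 2.04, 1.85 to 2.24), so its interval spans the 2-fold mark. Lgals3 stood at 1365 and 1470 CPM (ratio 1.08, 0.995 to 1.17), an interval that includes 1.

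The macrophage-like class was made of different clusters in the 2 libraries. In PBS 81 of 104 cells lay in cluster 12, which had MHC class II genes (Cd74 at 12060 CPM) and Mrc1 at 228 CPM. In NaIO3 273 of 476 cells lay in cluster 5, which carried microglial genes such as Olfml3 (594 CPM) and Cx3cr1 (383 CPM), and 164 in cluster 7. Cluster 12 held 19 NaIO3 cells and cluster 5 18 PBS cells, so each could be set side by side with few cells on 1 side, and which lineage any cell came from was not traced.

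Within cluster 5, 5 of the 9 genes were at least 2-fold higher in NaIO3 (background 12% of 8681 genes) and 1 at least 2-fold lower (25.3%). Spp1 stood at 2801 CPM in PBS, where only 2 of 18 cells had a UMI and 1 of them gave 243 of the 244 UMIs, and at 61567 CPM in NaIO3. Gpnmb stood at 838 and 7977 CPM (ratio 9.52). Lgals3 stood at 68.9 and 987 CPM, from 6 and 3561 UMIs (ratio 14.3, 6.58 to 39.1). Fabp5 had a ratio of 4.49, and Lpl one of 3.05 from 3 PBS UMIs (1.04 to 14.9). Trem2 (0.926, 0.816 to 1.05) and Cd9 (1.06, 0.917 to 1.24) had intervals that include 1. The lower member was Itgax, from 2 and 41 UMIs, with an interval of 0.129 to 4.23. Microglial genes differed beside them: 5 of the 8 genes on the resident microglia list were at least 2-fold lower and none at least 2-fold higher.

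Within cluster 12 the pattern was another. Of the 8 members with at least 20 counts, 1 was at least 2-fold higher (background 5.65% of 2958), Spp1 at 151 CPM in PBS and 1808 CPM in NaIO3, and none was at least 2-fold lower (7.23%). Itgax had 1 UMI on each side, from which no direction can be read. Fabp5 was lower in NaIO3 (ratio 0.549, 0.388 to 0.760), and Cd9 too (0.714, 0.511 to 0.978). Gpnmb (1.70) and Lgals3 (1.65) were higher, Trem2 was level at 1245 and 1249 CPM, and Lpl had a ratio of 1.39 (0.867 to 2.17). The Spp1 level of 1808 CPM in these 19 NaIO3 cells was near the 1181 to 1763 CPM of RPE-like, pigment-led and matrix-rich pigment cells, and the part of free RNA in it was not tested.

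Cluster 7 held 5 PBS cells, too few for a ratio, and these already had Spp1 at 7448 CPM, Gpnmb at 6297 CPM and Lpl at 729 CPM. Its 164 NaIO3 cells had less Spp1 (33279 CPM) and Cd9 (1281 CPM) than cluster 5 and more Fabp5 (4104 CPM), Lgals3 (2126 CPM) and Itgax (58.1 CPM against 11.4 CPM). Trem2 was 1893 CPM in cluster 7 and 2626 CPM in cluster 5. A further 20 NaIO3 cells with cell division genes (cluster 33) had Spp1 at 58361 CPM, near cluster 5, and Fabp5 at 4030 CPM, near cluster 7.

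**Figure D3:**
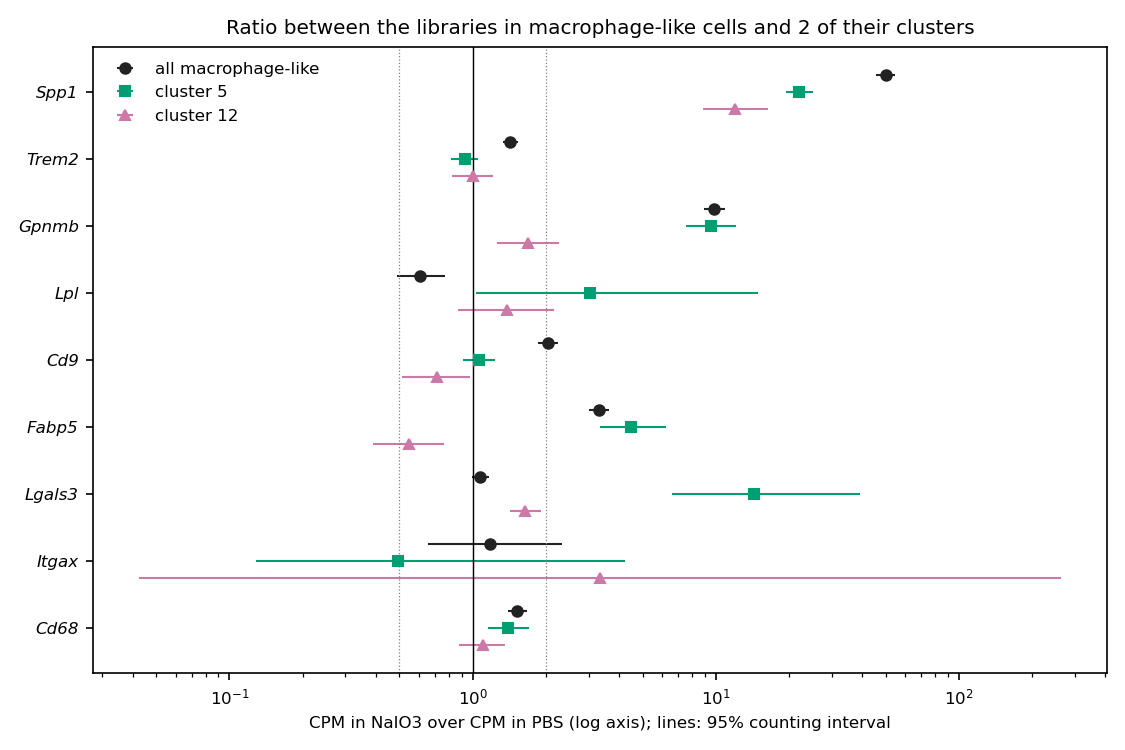
Ratio of CPM in NaIO3 to CPM in PBS (log axis) for each member in all macrophage-like cells, in cluster 5 and in cluster 12, with exact 95% counting intervals. Dotted lines mark 2-fold. Spp1 is right of the upper dotted line in all 3, Fabp5 lies at 4.49 in cluster 5 and at 0.549 in cluster 12, and Lpl lies at 0.610 in all macrophage-like cells but above 1 in both clusters drawn.

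Lpl differed in direction between the clusters. It was 34.4 CPM in PBS and 105 CPM in NaIO3 in cluster 5, and 185 and 257 CPM in cluster 12. In cluster 7 it was lower in NaIO3, at 729 CPM in PBS (19 UMIs from 5 cells, 439 to 1139 CPM) and 123 CPM in NaIO3 (272 UMIs, 108 to 138 CPM). The part of the mix of clusters in the ratio of 0.610 over the class was not tested. Cd9, with a ratio of 2.04 over the class, had 1.06 in cluster 5 and 0.714 in cluster 12.

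Cells were also thinned to 4000 UMIs each, which leaves out 40 PBS macrophage-like cells and no NaIO3 one, so that cells of unlike depth can be compared. A macrophage-like cell then held UMIs of a median of 5 of the 9 genes in PBS and 7 in NaIO3. At least 6 of the 9 were found in 24 of 64 PBS cells and in 473 of 476 NaIO3 cells. This count was higher in NaIO3 in other cells too: the median was 1 in PBS and 4 in NaIO3 RPE-like cells, and in surface epithelium-like cells 0 of 62 in PBS and 235 of 688 in NaIO3 had at least 6, so the part of free RNA in it was not tested. Spp1 had a median of 0 UMIs per thinned cell in PBS and 130 in NaIO3, with the 25th and 75th percentiles of NaIO3 cells at 41 and 244. Gpnmb had medians of 0 and 28, Fabp5 of 0 and 9, and Trem2 of 6 and 8. Of the 64 thinned PBS cells, 60 had a UMI of Trem2, 28 of Gpnmb, 25 of Fabp5 and 16 of Spp1, which does not limit how many cells express them. Unthinned, cells with a UMI were 21 of 104 for Spp1, 38 for Gpnmb, 31 for Fabp5 and 96 for Trem2. Across the 476 thinned NaIO3 cells the Pearson correlation of log values was 0.59 for Spp1 with Gpnmb, 0.50 for Gpnmb with Fabp5 and -0.25 for Trem2 with Lgals3. These describe cells of 1 library, which share the free RNA and the clusters.

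**Figure D4:**
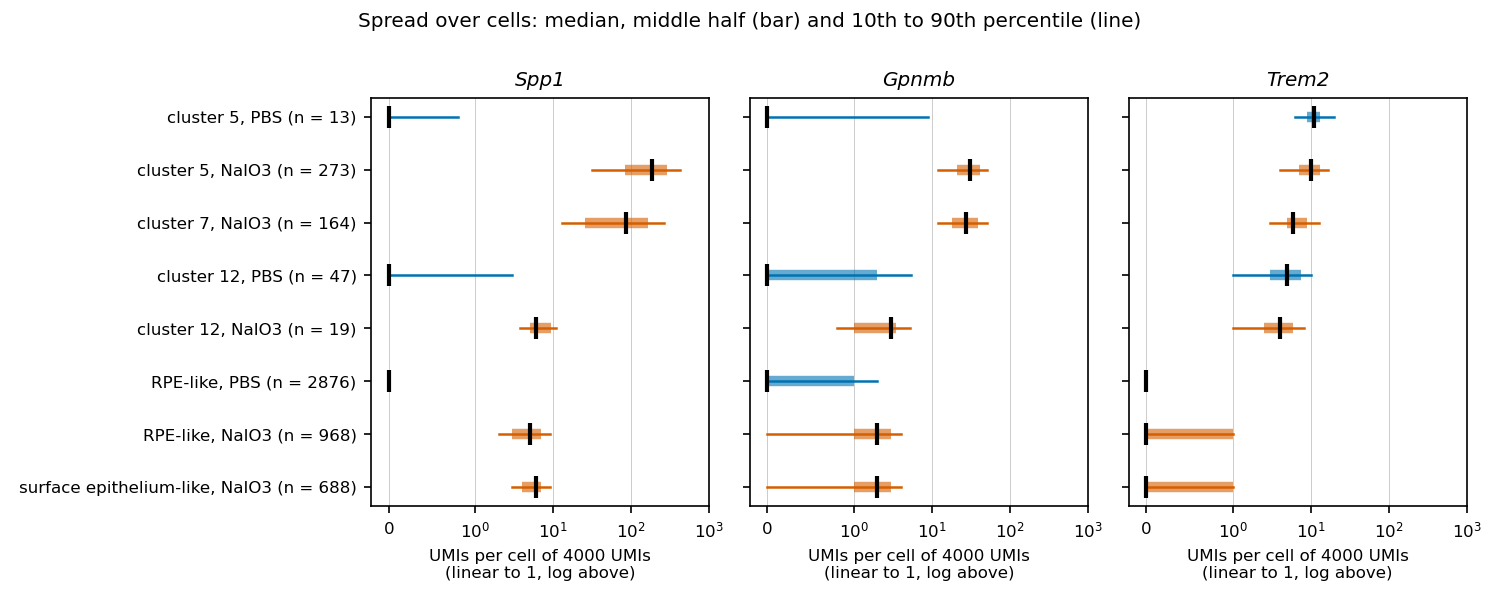
UMIs of Spp1, Gpnmb and Trem2 per cell after thinning to 4000 UMIs (linear to 1, then log), PBS in blue and NaIO3 in orange. Black ticks are medians, bars the 25th to 75th percentile and lines the 10th to 90th percentile. Trem2 sits at a median of 11 in PBS and 10 in NaIO3 in cluster 5, while Spp1 there goes from 0 to 182, and RPE-like and surface epithelium-like cells of NaIO3 overlap for all 3 genes.

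The partners of the members were read from lists of related genes, by the count of genes at least 2-fold apart in macrophage-like cells beside the 9.21% and 14.2% over all genes. On the TREM2 signalling list none of 8 tested genes was 2-fold apart: Tyrobp, the adaptor, stood at 4033 CPM in PBS and 6823 CPM in NaIO3 (ratio 1.69), and Apoe, a lipoprotein bound by TREM2, at 50503 and 59534 CPM (1.18). Apoe and Tyrobp had the highest NaIO3 levels of the list, followed by Clu (821 and 822 CPM) and Hcst (85.6 and 107 CPM). Inpp5d, a phosphatase that limits this signal, had the lowest ratio (0.670).

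Among other genes of lipid-associated and disease-associated phagocytes, 9 of 20 were at least 2-fold higher and 4 at least 2-fold lower, with a median log2 ratio of 0.31. The cathepsin genes Ctsd (6564 and 26717 CPM) and Ctsb (4950 and 13353 CPM), which encode lysosomal proteases, and the tetraspanin gene Cd63 (1869 and 5633 CPM) were among the higher, and Ctsl had the highest ratio, 6.26. The chemokine gene Ccl4 had the lowest, 0.229. For lipid uptake and storage 3 of 12 were higher and 1 lower: Plin2, a lipid droplet coat protein, stood at 196 and 558 CPM, Fabp3 had the highest ratio (20.7, from 4 and 1065 UMIs) and the receptor Cd36 stood at 291 and 244 CPM. For lipid breakdown and efflux 2 of 9 were higher and 1 lower, with Apoc1 at 24.8 (5 and 1600 UMIs) highest, Pparg lowest (0.330), and Psap at 3754 and 7050 CPM.

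Of the Spp1 receptors 1 of 7 was higher, the integrin gene Itgb5 at 251 and 505 CPM, and 2 were lower, Itga9 lowest (0.194 from 6 and 15 UMIs), while Cd44 had 13 and 287 UMIs (1.71, 0.986 to 3.26). Of the CD11c partners 1 of 4 was higher, Itgal from 1 and 136 UMIs, and the shared chain Itgb2 stood at 120 and 187 CPM. Of 4 galectin genes 1 was higher, Lgals3bp at 198 and 407 CPM, which encodes a galectin-3 binding protein. Of 7 tetraspanin genes Cd63 alone was higher, and of the 7 genes for the Gpnmb paralog and lysosome biogenesis none was, with Lamp1 at 1141 and 1753 CPM and Tfe3 lowest (0.422). Of the lipid-binding family 1 of 3 was higher, Fabp3. Of 4 genes for Lpl cofactors 2 were higher and 1 lower: Angptl4, an inhibitor of lipoprotein lipase, had 3 and 182 UMIs. Apoe, Cd63, Fabp3, Fabp4 and Tyrobp stand on more than 1 of the lists used.

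Lists for other phagocytes differed beside the members: 5 of 5 resident tissue macrophage genes (median log2 ratio -5.06), 4 of 4 MHC class II genes (-4.30) and 4 of 8 resident microglia genes were at least 2-fold lower in NaIO3. Of the monocyte-derived list 4 of 8 genes had 20 counts, 1 higher and 3 lower. Within cluster 12 none of 4 MHC class II genes was at least 2-fold lower (median log2 ratio 0.31). There 2 of 5 resident tissue macrophage genes (-0.41) and none of 6 resident microglia genes (0.17) were. Within cluster 5, 1 of 4 MHC class II genes was higher and 1 lower (0.18), and 5 of 8 resident microglia genes were lower. The part of the mix of clusters in the class values was not tested. Keratin genes of surface epithelium were at least 2-fold higher in NaIO3 macrophage-like cells for 7 of 7, with Krt12 at 26.5 CPM in PBS and 520 CPM in NaIO3, and the part of such RNA in the macrophage values was not tested.

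In RPE-like cells 8 of the 9 genes were at least 2-fold higher in NaIO3, all but Cd9, and none was at least 2-fold lower, where 8.51% and 2.80% of 13496 genes were. Spp1 stood at 2.75 CPM in PBS and 1181 CPM in NaIO3, a ratio of 429 (354 to 525). Trem2 stood at 2.89 and 77.8 CPM, Fabp5 at 2.89 and 114 CPM, Cd68 at 5.0 and 46.9 CPM, and Lgals3 at 21.8 and 140 CPM. Gpnmb stood at 108 and 496 CPM (ratio 4.61) and Cd9 at 85.4 and 147 CPM (1.73). Lpl had 17 and 33 UMIs and Itgax 7 and 19. Macrophage genes that are no members differed in the same way: 9 of the 10 reference genes C1qa, C1qb, C1qc, Tyrobp, Fcer1g, Laptm5, Csf1r, Fcgr3, Ms4a7 and Aif1 were at least 2-fold higher, C1qa at 11.3 CPM in PBS and 172 CPM in NaIO3. The exception, Csf1r, stood at 129 and 140 CPM, and was the reference gene highest above the others in RPE-like cells.

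The level of free RNA, that is RNA from broken cells taken up in every droplet, was therefore set beside each member. The share of free RNA in a class was the median, over the 10 reference genes, of the level in the class divided by the level in all kept cells of the library. It was 15.3% in PBS and 18.5% in NaIO3 RPE-like cells, with single reference genes between 11% and 99.4% and between 11.2% and 90.7%, Csf1r being the highest in both. A member's expected level was this share of its level over all kept cells. These include the class itself, so RNA of its own enters the expected level. RPE-like cells gave 79.7% of all UMIs in PBS and 28.9% in NaIO3, and pigment-led cells 8.84% and 26.8%. Folds over the expected level are therefore not on 1 scale between classes or libraries. In NaIO3 surface epithelium-like cells, an epithelium not known to express C1q genes, the share was 20.5%. In the 66 PBS cells of that class it was 102%, from 403 reference UMIs, with single reference genes between 38.5% and 158%. The share was therefore not alike between the 2 epithelia in PBS, and the reason was not tested.

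In NaIO3 RPE-like cells 0 of the 9 genes reached 2-fold above the expected level, where 91.0% of 11662 genes did. Spp1 was at 1181 CPM where 1470 CPM was expected, 0.803 of it (0.791 to 0.815). Trem2 (1.13), Cd68 (0.992), Lgals3 (0.911), Fabp5 (0.831) and Lpl (0.603) were near or below 1. Gpnmb, at 1.65 (1.62 to 1.69), and Cd9, at 1.5 (1.44 to 1.57), stood above it. With a free RNA profile from macrophage-like cells alone 3 of the 9 passed 2-fold, Gpnmb (2.21), Cd9 (2.67) and Lgals3 (3.23), while Spp1 (0.796), Lpl (0.698), Cd68 (1.01), Trem2 (1.16), Fabp5 (1.31) and Itgax (1.60) did not. Levels at or below the expected one cannot be told apart from free RNA. In the thinned cells the median of Spp1 was 5 UMIs per RPE-like cell, 10th to 90th percentile 2 to 9. In NaIO3 surface epithelium-like cells it was 6, 3 to 9. The variance over mean of Spp1 was 1.33 in RPE-like cells, and that of the 10 reference genes 0.95 to 1.33. This measure nears 1 for genes with few UMIs. All 10 reference genes together had 14692 UMIs there and Spp1 16564, so these values cannot be compared. A Spp1 UMI was found in 99.3% of thinned RPE-like and 99.4% of thinned surface epithelium-like cells. Unthinned, all 968 RPE-like cells had one.

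In PBS RPE-like cells 2 of the 9 genes were at least 2-fold above the expected level, where 95.9% of 12682 genes were: Gpnmb at 108 CPM where 22.2 CPM was expected (4.85, 4.70 to 5.0) and Cd9 at 85.4 CPM where 22.0 CPM was (3.88, 3.74 to 4.01). Cd68 (1.84) and Itgax (1.99, from 7 UMIs) were nearest below the mark, and both, with Lgals3, were past it with the macrophage profile (2.32, 3.63 and 7.66), and Spp1 (0.849), Trem2 (0.930), Fabp5 (0.825), Lpl (0.818) and Lgals3 (1.21) were near 1. With the expected level taken off, Gpnmb stood at 85.4 CPM in PBS and 196 CPM in NaIO3, 2.30-fold higher in place of 4.61-fold, and Cd9 at 63.4 and 49.4 CPM, 0.780-fold in place of 1.73-fold, so the direction for Cd9 turned. With a free RNA profile from macrophage-like cells alone the same ratios were 2.56 and 1.10.

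Pigment-led cells, richer in melanin genes, held more Gpnmb than RPE-like cells: 501 CPM in PBS and 915 CPM in NaIO3 (ratio 1.83). That was 20.9 and 2.32 times the expected level, and 477 and 520 CPM with it taken off, 1.09-fold. Lpl, at 5.49 CPM in PBS from 23 UMIs, was 9.25 times the expected level (5.87 to 13.9), and at 6.47 CPM in NaIO3 1.26 times (1.0 to 1.56). Cd9 was 5.75 and 1.72 times it. At least 2-fold above the free RNA level were 5 of 9 genes in PBS, Cd68 and Itgax (from 2 UMIs) being the others, and Gpnmb alone in NaIO3, where 98.9% of 9189 and 89.8% of 11881 genes were. Between the libraries 6 of the 9 genes were at least 2-fold higher in NaIO3 pigment-led cells and none at least 2-fold lower (background 13.5% and 2.01% of 12260), and in NaIO3 Spp1, Trem2, Fabp5, Lgals3 and Cd68 were 0.766 to 1.10 times the expected level.

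The matrix-rich pigment cluster had 4 of the 9 genes at least 2-fold above the free RNA level, where 96.5% of 9208 genes were. Gpnmb stood at 1943 CPM, 6.64 times the expected 293 CPM (6.46 to 6.81), the second highest level of Gpnmb among NaIO3 classes after macrophage-like cells. Lpl stood at 22.6 CPM from 66 UMIs, 5.93 times expected, Cd9 at 362 CPM, 3.77 times, and Lgals3 at 325 CPM, 2.16 times. Spp1 stood at 1763 CPM, 1.23 times expected (1.19 to 1.26), and Trem2 (1.11), Fabp5 (1.04) and Cd68 (1.17) were near 1, with 2 UMIs of Itgax in all 124 cells. Gpnmb was found in every thinned cell of the cluster, with a median of 7.5 UMIs and a lowest value of 1, and in NaIO3 RPE-like cells the median was 2. The macrophage reference genes there stood at 12% to 25% of their level over all cells, with a median (18.1%) near that of RPE-like cells. The median depth was 23227 UMIs per cell here and 11945 in NaIO3 RPE-like cells.

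The matrix-rich cluster also had 4 of the 9 genes at least 2-fold above the free RNA level (background 96.0% of 8942), with Spp1 in place of Cd9. Spp1 stood at 4881 CPM, 4.05 times the expected level (3.98 to 4.13). Over its 89 thinned cells the median was 11 UMIs, the 25th and 75th percentiles 7 and 25, the 90th percentile 41.2 and the maximum 143. That median was above the 90th percentile of NaIO3 RPE-like and of NaIO3 surface epithelium-like cells, 9 UMIs in each, while the highest cells stood far above the rest. Lpl stood at 34.3 CPM (10.7 times expected), Gpnmb at 611 CPM (2.49 times) and Lgals3 at 293 CPM (2.33 times). Cd9 was 1.69 times expected, Trem2 1.2, Cd68 1.09 and Fabp5 1.05, and no Itgax UMI was found. The cell cycle inhibitor gene Cdkn2a stood at 833 CPM here and 195 CPM in the matrix-rich pigment cluster, against 9.27 CPM in NaIO3 RPE-like cells.

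**Figure D5:**
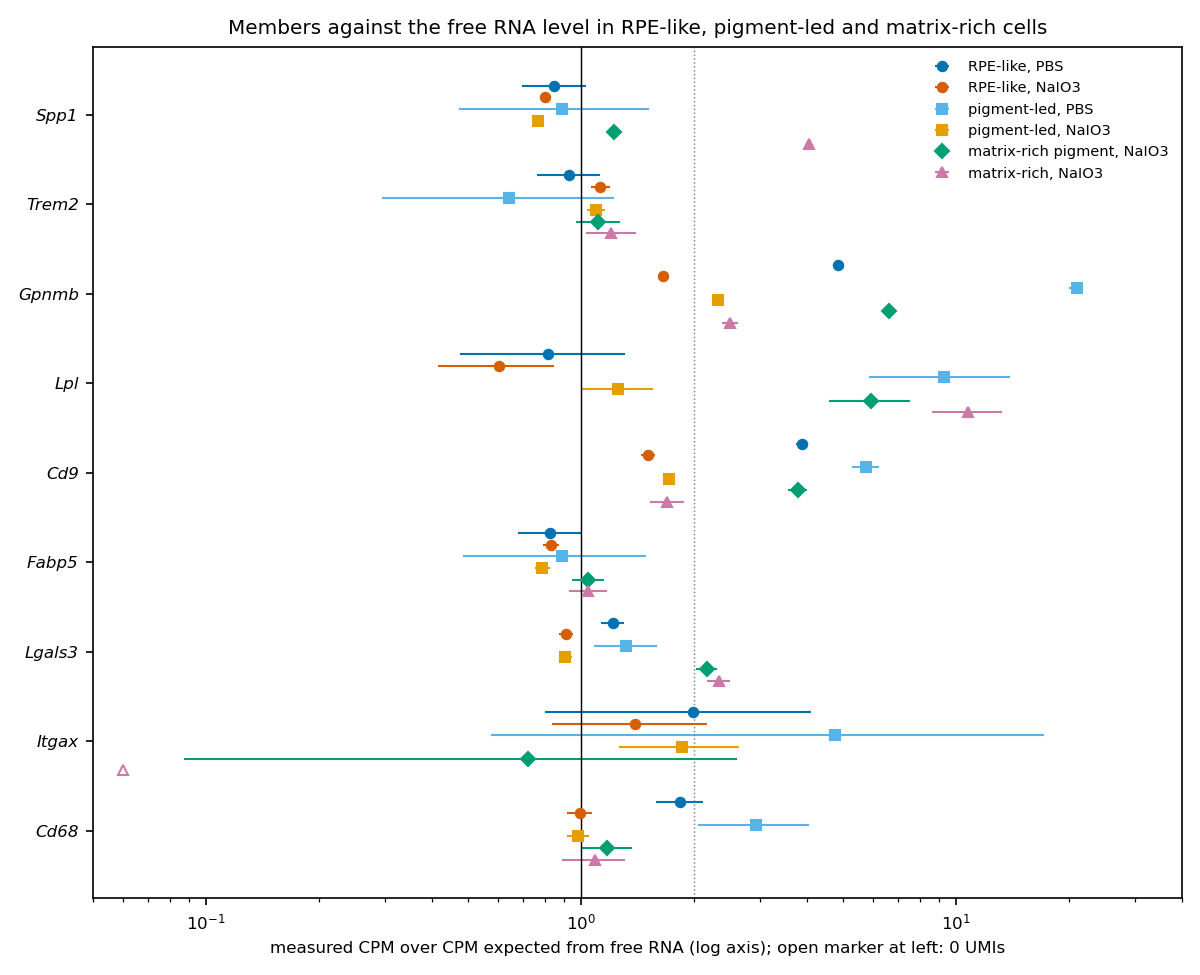
Measured level over the level expected from free RNA (log axis) for each member in RPE-like, pigment-led, matrix-rich pigment and matrix-rich cells, with exact 95% counting intervals on the measured count. The solid line marks 1 and the dotted line 2. Trem2 lies between 0.642 and 1.2 and Fabp5 between 0.788 and 1.05, Spp1 is past 2 in the matrix-rich cluster (4.05) alone, and Gpnmb is past 2 in all groups except NaIO3 RPE-like cells (1.65).

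The genes most like each member were ranked by the Pearson correlation of log2(CPM + 5) over 36 groups of at least 20 cells (cluster by library), among 12221 genes that are no members. These correlations describe groups that share libraries and free RNA. Trem2 was most like the complement genes C1qa (0.97), C1qc and C1qb, and Cd68 most like Fcer1g (0.94), C1qc and Aif1. Spp1 was most like Pld3 (0.88), Grn and Ctsd, and Gpnmb most like Ctsd (0.94), Pld3 and Lgals3bp. Among the members themselves, Spp1 and Gpnmb were closest to each other (0.853, where Spp1 with Grn had 0.853 and with Ctsd 0.834), as were Trem2 and Cd68 (0.931, above the 0.926 of Cd68 with C1qc). Itgax was most like Plcb2 (0.92), Wdfy4 and Itgal, Lpl most like Adap2 (0.83), Adap2os and Trpv2, and Lgals3 most like Rnpep (0.92), Pycard and Oas1a. Cd9 was most like Gng12 (0.88), Tpm3 and H2-D1, and Fabp5 most like Pgd (0.84). Adap2os may share reads with Adap2, since the strand setting of the counting is not given in the sources used here.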

How the data were processed

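Single cells were captured in droplets (10x Genomics) per the labels' protocols. The authors deposited UMI counts, not normalized, made with Cell Ranger 3.0.2 and the mm10 build per the submitters' processing notes. No annotation release or strand setting is given in the sources used here. The libraries held 4618 (PBS) and 4058 (NaIO3) barcodes. Barcodes under 500 genes or over 25% mitochondrial counts were left out, and the highest Scrublet scores were removed as doublets at 0.8% per 1000 barcodes (162 and 128), since the automatic threshold marked 0 and 3. The 9 genes were left out of the 2000 variable genes. Cells were clustered with scanpy 1.11.5 (30 principal components, 15 neighbours, Leiden resolution 1, leidenalg 0.10.2) into 35 clusters. A name needed a mean log2 fold of at least 1 over its markers, with 3 of them at 2-fold. A cluster that met this for RPE but had more melanin genes than RPE markers among its 10 leading genes was called pigment-led, a rule added after the clusters were seen. Otherwise no name was given where another class had more markers among the 10 leading genes. Cluster 13 met the marker rule for mural cells (mean log2 fold 1.61, 4 markers at 2-fold) but had more leading fibroblast genes. The name matrix-rich also asked for more NaIO3 than PBS cells. The median over reference genes replaced their sum after Csf1r was seen in RPE-like cells. Counts were summed per class and library and given as CPM. Counts of members at least 2-fold apart used a pseudocount of 0.5. Only classes with at least 20 cells were ranked, and free RNA was set for those with at least 200 reference UMIs. Each matrix holds called cells only, so the composition of free RNA was not measured in empty droplets. With 1 library per group no test was run. The ratio and free RNA steps were checked on simulated data with 200 changed genes. Simulated counts were Poisson, and the simulated reference genes had no expression of their own in the class. The check therefore does not cover a reference gene that stands apart, as Csf1r did in RPE-like cells. The members and lists were chosen with earlier results of these data known. All members are named, and a list's genes are named for the 4 highest levels in NaIO3 macrophage-like cells or the highest or lowest ratio, with examples from these; values of some genes under this rule are not reported here. Coordinates of promoters come from RefSeq (GRCm38.p6), and 3 list symbols (Clec7a, Trbc2, Ighm) matched no row. Alternatives were other clusterings, filters and scalings, with edgeR 4.0.16 and DESeq2 1.42.0 used for scaling factors alone.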

Additional observations from a re-analysis of the deposited data

Results flagged for a closer look

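Lpl was lower in NaIO3 macrophage-like cells, with a ratio of 0.610 to PBS, and higher in NaIO3 RPE-like cells, with a ratio of 5.23. It was singled out because the counting intervals of the 2 classes lie on opposite sides of 1 (0.490 to 0.766 and 2.83 to 10.0). The difference between the classes was not tested, since each group is 1 library. The RPE-like value rests on 17 and 33 UMIs and was at 0.818 and 0.603 of the level expected from free RNA. Within the macrophage-like class Lpl was higher in NaIO3 in clusters 5 and 12 and lower in cluster 7 (729 CPM in PBS from 5 cells, 123 CPM in NaIO3).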

How the results depend on the processing

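No paired analysis was possible because each group has 1 library. For the 7 counts of members, 83 of 94 alternative values were within 1.5 times the reported one. Some of these could differ little or not at all. Leaving out the minimum of counts gave the reported value by construction. The macrophage-like class had 104 and 476 cells also at Leiden resolutions 0.5 and 2 and with the members kept among the variable genes. In macrophage-like cells the count of 4 at least 2-fold higher became 2 without cluster 12 (Spp1 and Gpnmb) and 2 in cluster 12 alone (Spp1, and Itgax from 1 UMI on each side), choices added after seeing the data. There the log2 ratio turned for Trem2 (-0.28 without cluster 12, -0.11 in cluster 5 alone), Cd9 (-0.076 without cluster 12, -0.47 in cluster 12), Fabp5 (-0.85 in cluster 12) and Lpl (0.49 in cluster 12, 1.39 in cluster 5). Lgals3 and Itgax, whose intervals include no difference, also changed sign: Lgals3 from 0.11 to -0.16 with cells thinned to 4000 UMIs, and Itgax from 0.18 to -1.80 without cluster 12 and -1.32 in cluster 5. Over all 16 alternatives that of Spp1 was between 3.57 and 6.58 and that of Gpnmb between 0.77 and 3.49. Without the 1 PBS cell richest in member UMIs that of Spp1 was 6.58. In NaIO3 RPE-like cells the count of 0 above the free RNA level became 3 (Gpnmb, Cd9 and Lgals3) with a profile from macrophage-like cells alone, 1 (Gpnmb) with a share from keratin genes and 1 (Gpnmb) with pigment-led cells counted in, the last also added after seeing the data. In PBS RPE-like cells the count of 2 became 5 with each cell's CPM averaged, 5 with the macrophage profile, 5 with keratin genes, 4 without cells with 5 or more reference UMIs, 1 with summed reference genes (added after seeing the data) and 0 above the highest reference gene. Leaving out cells with 5 or more reference UMIs left 22 NaIO3 RPE-like and 3 matrix-rich pigment cells, so it gave no value there. The border between RPE-like and pigment-led cells moved with the clustering: the NaIO3 library had 645 to 2195 RPE-like and 27 to 1300 pigment-led cells, against 968 and 1278. In the matrix-rich pigment cluster the count was 3 to 5, and Gpnmb and Lpl were above 2-fold under every alternative run. TMM and DESeq2 size factors moved log2 ratios by 0.17 and 0.16 in macrophage-like and by -0.07 and -0.07 in RPE-like cells. The depth limits Itgax most, with 12 UMIs in PBS macrophage-like cells.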

Other observations

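Some of the 9 genes were held by cells that are neither phagocytes nor pigment cells. Spp1 stood at 255 CPM in PBS fibroblast-like cells, 31.4 times the level expected from free RNA (28.4 to 34.7), and at 4195 CPM in the 47 NaIO3 fibroblast-like cells, where it was 0.852 of the expected level (0.813 to 0.891). The share of free RNA by the macrophage reference genes was 38.1% and 61.9% in these cells, the second from 1375 reference UMIs. In the other NaIO3 classes that are no phagocytes it was 15.1% to 24.4%. In the NaIO3 fibroblast-like cells keratin genes gave a share of 12.8%, so the 0.852 depends on the reference genes used. Cd9 in the same cells was 9.55 and 2.17 times expected. In NaIO3 Müller glia-like cells Cd9 stood at 1118 CPM, 9.74 times expected.

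Surface epithelium-like cells carried Lgals3 at 3317 CPM in PBS and 3042 CPM in NaIO3 (ratio 0.917), and Fabp5 at 276 and 1600 CPM (ratio 5.80, 5.12 to 6.60). Lgals3, Fabp5 and Cd9 (790 CPM) were above the free RNA level in NaIO3, 17.9, 10.6 and 7.28 times it, while Cd68 (1.39), Trem2 (1.18), Gpnmb (1.29) and Spp1 (0.805) were near it. In cluster 3, which holds cells of both libraries, Fabp5 stood at 217 CPM in PBS and 2057 CPM in NaIO3. The PBS class has 66 cells and the NaIO3 class 688.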
